A study of Mus musculus with 3 samples.

Results

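The 38 genes described here encode claudins and their partners at the tight junction. They were taken from a list made by gene family: 22 claudins and 16 other genes, which encode MARVEL proteins, an angulin, junctional adhesion molecules, scaffolds and polarity proteins. All peaks whose nearest transcription start site (TSS) belonged to a listed gene were collected from the deposited annotation. This gave 112 of the 50869 GATA4 peaks, credited to 33 of the 38 genes, while the other 5 genes were credited with none. Peaks were collected by gene name only and by no measured value, but the gene list was chosen with earlier results of these data known.

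The peaks come from adult mice of 10 to 12 months. The labels give the genotype of all libraries as G4fb/fb R26 Bira/Bira, which is known as a Gata4 allele with a Flag and biotin tag, for the transcription factor GATA4, together with the biotin ligase BirA at the Rosa26 locus. Stomach mucosa gave 2 GATA4 libraries, pulled down with streptavidin beads, and 1 input library of the same genotype without pull-down; no library from mice lacking the tag was used here. The authors' peak caller pooled both pull-downs, so the values used here are not split by replicate, and no difference between samples could be tested. The mucosa holds several cell types, and binding in fewer cells cannot be told apart from weaker binding in each cell. Of the markers checked, 8 of 9 gastric epithelial genes, 3 of 5 smooth muscle genes, 2 of 6 endothelial genes and 0 of 5 immune genes had a credited peak within 10 kb of the TSS, against 64.4% of 21031 protein-coding genes.

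Tight junctions seal the gap between neighbouring epithelial cells. Claudins form the strands: some tighten the barrier, others form channels for selected ions, and each tissue has its own set. Zonula occludens proteins and cingulins tie the strands to actin, and the Par and Crumbs complexes place the junction at the border of the apical membrane. In the stomach the barrier holds back acid, and claudin-18 is its best known claudin.

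Fold enrichment below is the authors' ratio of pooled pull-down coverage to local input. Its median was 4.37 over all peaks and 5.23 over peaks centred within 1 kb of a TSS. Intervals beside a fold are exact Poisson 95% intervals on the pull-down tags at the summit; they cover counting error only. After duplicates were removed the pooled pull-downs held 38770530 tags and the input 23023152, and the median peak held 22 tags. Peak positions are those of mm9. A top 10% peak is a peak above the 90th percentile of −log10 q-value with ties left out, which gave 5015 peaks, or 9.86% of all.

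The promoters at which the peaks of the junction genes are described in most detail are shown first. Each line gives the 250 bases upstream of a start site from RefSeq, build GRCm38.p6, 5′ to 3′ on the strand of the gene. Capitals mark the GATA words that were searched on either strand. These were AGATAA, the word with another first base, TGATAA, the word with another last base, AGATAG, and the word with both changed, TGATAG, none of which contains another. The Cldn18 starts were chosen because both lay inside a top 10% peak, Cldn4 for a peak that lay upstream of its start, Tjp1 as a scaffold gene with a match, and Pard6b for the strongest peak of all 38 genes. In order, the windows are chr9:99717268-99717517 and chr9:99710064-99710313 on the minus strand for Cldn18, chr5:134946935-134947184 on the minus strand for Cldn4, chr7:65371245-65371494 on the minus strand for Tjp1 and chr2:168080754-168081003 on the plus strand for Pard6b. These coordinates belong to another build than the peaks and are not compared with theirs. Distances from a start are set side by side on the assumption that the start is the same base in both builds. For Cldn18 the spacing of its starts was the same in both. It differed for Pard3 (235596 against 235556 bp) and Tjp3 (5486 against 314 bp). Cldn4, Tjp1 and Pard6b had a single start, so the assumption could not be checked for them.
Cldn18, upstream start: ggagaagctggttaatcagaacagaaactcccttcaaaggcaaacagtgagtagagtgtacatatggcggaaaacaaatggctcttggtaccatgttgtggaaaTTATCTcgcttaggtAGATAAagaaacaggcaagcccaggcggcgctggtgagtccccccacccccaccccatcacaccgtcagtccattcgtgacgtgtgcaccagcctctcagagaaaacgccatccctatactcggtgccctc
Cldn18, downstream start: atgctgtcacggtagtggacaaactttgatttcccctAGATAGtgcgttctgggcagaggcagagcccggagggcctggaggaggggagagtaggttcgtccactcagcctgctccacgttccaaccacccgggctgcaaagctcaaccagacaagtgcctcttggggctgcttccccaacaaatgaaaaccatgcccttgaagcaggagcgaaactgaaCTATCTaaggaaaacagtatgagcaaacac
Cldn4: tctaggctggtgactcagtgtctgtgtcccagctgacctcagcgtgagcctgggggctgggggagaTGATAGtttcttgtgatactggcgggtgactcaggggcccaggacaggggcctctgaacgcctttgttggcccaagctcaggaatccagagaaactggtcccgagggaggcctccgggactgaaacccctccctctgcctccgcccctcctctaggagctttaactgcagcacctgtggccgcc
Tjp1: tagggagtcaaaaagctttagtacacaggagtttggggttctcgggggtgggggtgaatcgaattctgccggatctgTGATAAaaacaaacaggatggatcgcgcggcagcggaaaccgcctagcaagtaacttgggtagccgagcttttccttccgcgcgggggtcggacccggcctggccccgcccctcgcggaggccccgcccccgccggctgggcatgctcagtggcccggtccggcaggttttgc
Pard6b: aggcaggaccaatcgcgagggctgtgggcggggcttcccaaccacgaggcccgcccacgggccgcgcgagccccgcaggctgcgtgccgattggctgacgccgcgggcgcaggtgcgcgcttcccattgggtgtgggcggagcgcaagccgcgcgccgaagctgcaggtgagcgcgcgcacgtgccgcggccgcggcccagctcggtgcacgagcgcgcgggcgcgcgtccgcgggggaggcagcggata

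Both Cldn18 promoters held a pair of GATA words, the Cldn4 and Tjp1 promoters held a single word, and the Pard6b promoter held none. Upstream of the first Cldn18 start they lay at 146 to 141 and 131 to 126 bases, and upstream of the second at 213 to 208 and 30 to 25 bases. Of all 32851 RefSeq promoters, 26.5% held at least 1 such word and 6.40% held 2 or more. Of the 48 promoters of listed genes, 4 held 2 or more: both of Cldn18, 1 of Cldn10 and 1 of Tjp3. Promoters were found for 32 of the 38 genes. At least 1 word was present in 7 of 19 claudin genes and 3 of 13 other junction genes, against 26.6% of 16853 protein-coding genes with a promoter in the table. These are matches of letters, not sites of binding.

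GATA4 peaks lay at the start of every scaffold and polarity gene on the list but at the start of only part of the claudins. A credited peak was centred within 1 kb of the TSS in all 9 scaffold and polarity genes (100%, exact binomial 95% interval 66.4 to 100) and in 11 of 22 claudins (50%, 28.2 to 71.8), against 57.4% of protein-coding genes. The claudin share is thus near the background. Within 10 kb the counts were 9 of 9 scaffold and polarity genes, 12 of 22 claudins and 16 of 16 junction genes other than claudins, against 64.4%, and within 50 kb 16 of 22 claudins, against 70.9%. The TSS itself lay inside a credited peak in 8 of 9 scaffold and polarity genes and in 4 claudins, namely Cldn11, Cldn12, Cldn18 and Cldn23, against 44.9% of protein-coding genes.

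The groups also differed in where the strong peaks lay. A top 10% peak within 1 kb of the TSS was credited to 7 of 9 scaffold and polarity genes (77.8%, 39.99 to 97.2) and to 1 claudin, Cldn18 (4.55%, 0.115 to 22.8), against 16.5% of protein-coding genes. A top 10% peak 1 to 50 kb from the TSS was credited to 5 claudins, Cldn3, Cldn7, Cldn9, Cldn15 and Cldn18 (22.7%, 7.82 to 45.4). Only 1 scaffold or polarity gene, Pard6b, had such a peak (11.1%, 0.281 to 48.2), and the background was 3.53%. The limit of 50 kb left out a top 10% peak of Tjp1, 95.1 kb upstream, so this difference depends on the limit. The Cldn7 peak passed the limit of 1 kb narrowly, with its centre at 1.04 kb from the credited start. RefSeq lists a further Cldn7 start nearer to that centre, so its place among the 5 depends on the start used. Of the 7 top 10% peaks of claudins, 28.6% were centred within 1 kb, and of the 10 of other junction genes 80.0%. Over peaks of any strength, 38.2% of 55 claudin peaks (25.4 to 52.3) were centred within 1 kb, against 31.7% of all peaks. The share was alike in other junction genes, at 38.6% of 57 peaks (26.0 to 52.4). For scaffold and polarity genes alone it was lower, at 28.6% of 42 peaks (15.7 to 44.6), and these intervals overlap. Peaks over 10 kb from a TSS made up 41.8% of the claudin peaks and 43.9% of those of other junction genes, against 45.3% of all. For scaffold and polarity genes alone they made up 52.4%. In CpG islands lay 5 claudin peaks and 6 others, against 7.67% of all, and in annotated repeats 8 and 4, against 19.5%. The counts are small and no test was made between the groups, since genes are not replicates.

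**Figure D1:**
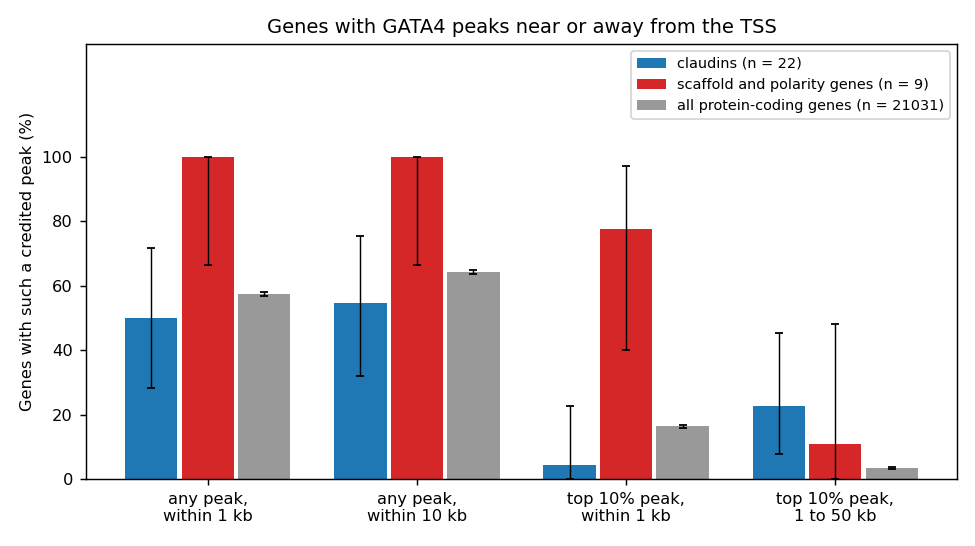
Share of genes (%, y axis) with a credited GATA4 peak of the kind named on the x axis, for 22 claudins, 9 scaffold and polarity genes and 21031 protein-coding genes; bars are shares and whiskers exact binomial 95% intervals. Scaffold and polarity genes reach 100% within 1 kb and 77.8% for top 10% peaks there, while claudins stand at 50% and 4.55%; for top 10% peaks at 1 to 50 kb claudins stand at 22.7%.

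Claudin-18, the claudin of the gastric surface and glands, had more top 10% peaks than any other claudin. The gene is known for a pair of alternative first exons, used in lung and in stomach; the annotation used here does not say which start is which. The starts were 7.20 kb apart, with the same spacing in mm9 and in the RefSeq promoter table. Of the 4 credited peaks, 3 were in the top 10%.

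At the upstream start of Cldn18 a peak of 42 tags (chromosome 9, 99617669 to 99617909) reached 8.70-fold (6.36 to 11.6). It reached from 223 bases upstream of the start to 17 downstream, with its summit 72 upstream, and the span holds both GATA words of the upstream sequence above. At the downstream start a peak of 43 tags (99610209 to 99610711) reached 6.63-fold (4.87 to 8.85). It reached from 229 bases upstream to 273 downstream, with its summit 66 downstream, and also spans both words of its promoter. The third, of 35 tags, lay 7.61 kb past the downstream start in intron 1 of a transcript that begins at the upstream start (99602752 to 99603001) at 7.30-fold (5.19 to 10.0). The weakest lay 8.19 kb upstream of the first start (99625758 to 99625993) at 4.41-fold (3.01 to 6.26). The intervals of all 3 stronger peaks overlap, so their order is not set by these counts.

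Cldn3 and Cldn4, neighbours that encode claudins of gut and other simple epithelia, lay in a shared field of peaks. They face away from each other on chromosome 5 with 39.3 kb between their starts. Together they were credited with 13 peaks over 53.6 kb (135415245 to 135468865), 6 for Cldn3 and 7 for Cldn4, and 7 of the 13 were centred between the starts.

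The strongest peak of any claudin lay there, 11.8 kb upstream of Cldn3 and 27.4 kb upstream of Cldn4 (135449888 to 135450603). It held 51 tags and reached 10.4-fold (7.85 to 13.6), rank 414 of all peaks by fold and 483 by q-value. Its interval lay wholly above those of 10 of the other 12 peaks at the locus, whose folds ran from 3.07 to 6.11, and overlapped those of 2.
At the Cldn3 promoter itself 3 peaks were centred 515 bp upstream (3.70-fold), 206 bp downstream (5.28-fold) and 721 bp downstream (3.07-fold). At Cldn4 the corresponding peaks lay 162 bp upstream (4.93-fold, 135422838 to 135423094), 324 bp downstream (4.32-fold) and 702 bp downstream (3.72-fold). Both starts thus had peaks below the top 10% around them and none over them. The upstream Cldn4 peak reached from 290 to 34 bases before the start with its summit 177 before it; the single GATA word of the Cldn4 promoter lay at 184 to 179. Of the remaining peaks, 3 lay in copies of the satellite repeat ZP3AR, namely 9.60 kb upstream of Cldn3 (4.92-fold), 15.4 kb upstream of Cldn4 (5.68-fold) and 7.13 kb downstream of Cldn4 (6.11-fold). In total, 267 peaks of the series lay in that repeat, and how far reads of repeat copies add to these folds was not tested.

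**Figure D2:**
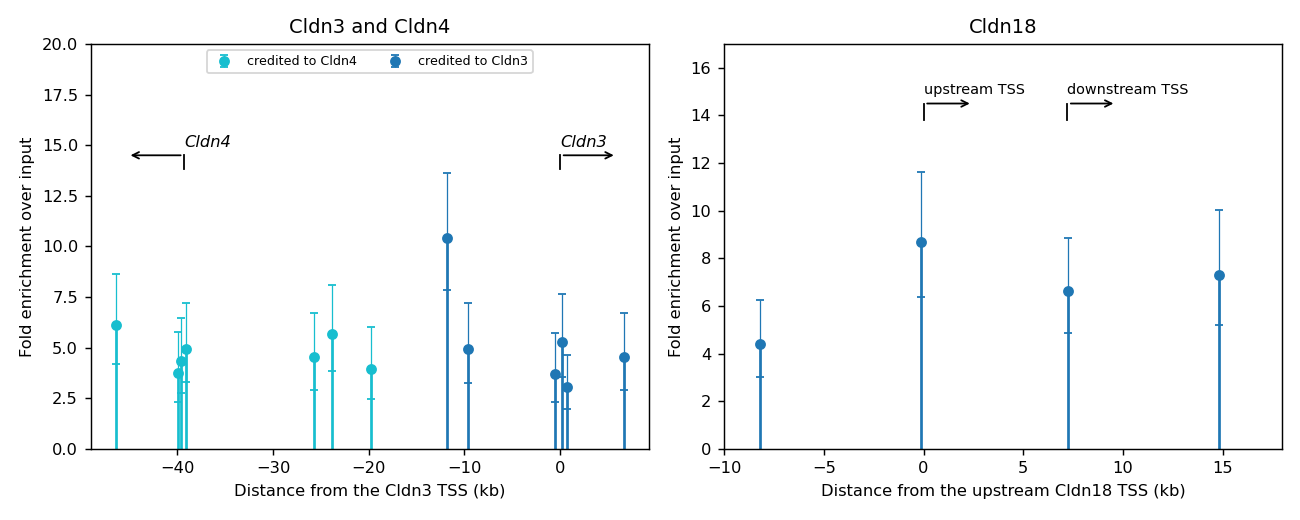
Fold enrichment (y axis) of the credited peaks against distance from a start in kb (x axis), for Cldn3 and Cldn4 (13 peaks, left) and Cldn18 (4 peaks, right); points are peaks and whiskers exact Poisson 95% intervals on the tags. The highest point of the left panel, 10.4-fold, stands 11.8 kb upstream of Cldn3, while at Cldn18 peaks of 8.70-fold and 6.63-fold stand at the starts.

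Cldn7 is a basolateral claudin of epithelia and Cldn15 a pore-forming claudin of the gut. Each had a top 10% peak centred over 1 kb from the credited start and none nearer to that start. Cldn7 had peaks 268 bp upstream and 165 bp downstream of its start, both 4.49-fold on 21 tags. Its strongest peak lay 1.04 kb downstream in a CpG island of intron 1 (chromosome 11, 69779492 to 69780441), with 51 tags and 7.82-fold (5.89 to 10.2). That peak reached from 569 to 1518 bases downstream, so only its centre lay past 1 kb, and narrowly. The fourth lay 2.26 kb downstream at the end of the neighbour Elp5 (4.72-fold). RefSeq lists a further Cldn7 start downstream of the first, at 69965421 against 69964779 in GRCm38.p6. If the spacing is the same in mm9, that start lies inside the strongest peak and within 1 kb of its centre. The distances used here are from the first start only. The strongest Cldn15 peak lay 2.57 kb upstream (chromosome 5, 137440936 to 137441406), in intron 2 of the neighbour Fis1, with 43 tags and 8.90-fold (6.53 to 11.9). Cldn15 peaks nearer the start had 4.92-fold (3.24 to 7.21) 1.87 kb upstream and 4.09-fold (2.60 to 6.21) 676 bp upstream. The last of these had an interval below that of the strongest, while the intervals of the other Cldn15 peak and of the Cldn7 peaks overlap those of the strongest peak of their gene.

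Cldn6, an embryonic claudin, and Cldn9, which in mice is needed in the inner ear, face each other on chromosome 17 with starts 4.66 kb apart. Cldn9 was credited with a single peak, 15.8 kb upstream in a CpG island (23836360 to 23837318), of 36 tags and 7.46-fold (5.32 to 10.2). Cldn6 had 3 weaker peaks, 120 bp (3.72-fold), 618 bp (3.90-fold) and 2.09 kb (4.89-fold) downstream of its start. The same 3 peaks lay 4.54, 4.04 and 2.57 kb from the Cldn9 start, so that only the last of them had nearly equal distances to both starts. A peak of 6.11-fold, 1.94 kb upstream of Cldn6, was credited to Tnfrsf12a.

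Peaks below the top 10% covered the starts of 3 further claudins. Cldn11, a claudin of myelin and of the testis, had a peak centred 4 bp from its start at 3.52-fold (2.30 to 5.20). Cldn12, which lacks the usual PDZ-binding tail of claudins, had a peak 7 bp from its start at 4.47-fold (2.97 to 6.50) and another 395 bp downstream at 5.31-fold. Cldn23, a claudin encoded in a single exon, had peaks at 42 bp upstream (4.85-fold) and 851 bp downstream (5.91-fold). All of these were below the top 10%. Cldn5, the main claudin of endothelium, had 1 peak, in its exon 643 bp downstream, at 4.92-fold (3.24 to 7.21); the endothelial markers Esam and Kdr had peaks within 10 kb, whereas Cdh5 and Tek were credited with none, and the part of endothelial cells in the Cldn5 peak was not tested.

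Cldn10, which forms ion pores in kidney and glands and has alternative first exons, had 4 peaks. Near its downstream start they had 3.07-fold 192 bp upstream and 4.72-fold (3.08 to 6.97) 349 bp downstream. Its strongest peak, 26.6 kb from that start in intron 19 of Dzip1, had 6.51-fold (4.60 to 8.98) and a −log10 q-value of 9.66, just under the lowest value of a top 10% peak, 9.77. The intervals of that peak and of the peak 349 bp downstream overlap, so their order is not set by these counts.

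The remaining claudins with a peak had none within 1 kb of a start. Cldn14, a cation-blocking claudin of kidney and inner ear, was credited with 8 peaks, the nearest 10.4 kb away, at 3.70- to 6.11-fold. Cldn22 had peaks at 6.61 kb (6.07-fold), 72.2 kb (4.69-fold) and 76.2 kb (3.92-fold), all within introns of Wwc2, and its neighbour Cldn24 had 1 peak 10.9 kb upstream (3.07-fold). Cldn1, the barrier claudin of skin, had 1 peak 54.3 kb away at 3.81-fold, and Cldn17 had 1 peak 20.9 kb away at 3.66-fold. The peaks of Cldn1 and Cldn17 both lay in L1Md_T, a young LINE-1 repeat.

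No peak was credited to Cldn2, a cation and water pore of leaky epithelia, Cldn8, Cldn16 or Cldn19, claudins known from kidney tubules, or Cldn20. Being credited with none means that no peak had a start of the gene as its nearest, and weak binding below the limit of the peak caller cannot be told apart from none. Of the 10 genes next to these 5, Ripply1, Krtap24-1, Tmem207 and Nox3 were also credited with none and 6 had a peak. Beside Cldn2, Morc4 had 1 of 5.11-fold, and beside Cldn19, P3h1 had 1 of 4.56-fold and Ybx1 had peaks up to 5.45-fold. Beside Cldn20, Tfb1m had 1 of 4.29-fold, and the other neighbours with a peak were Cldn17, beside Cldn8, and Cldn1, beside Cldn16. Over the whole list, 17 of 22 claudins and 16 of 16 other junction genes had a peak at some distance, against 73.7% of protein-coding genes.

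**Figure D3:**
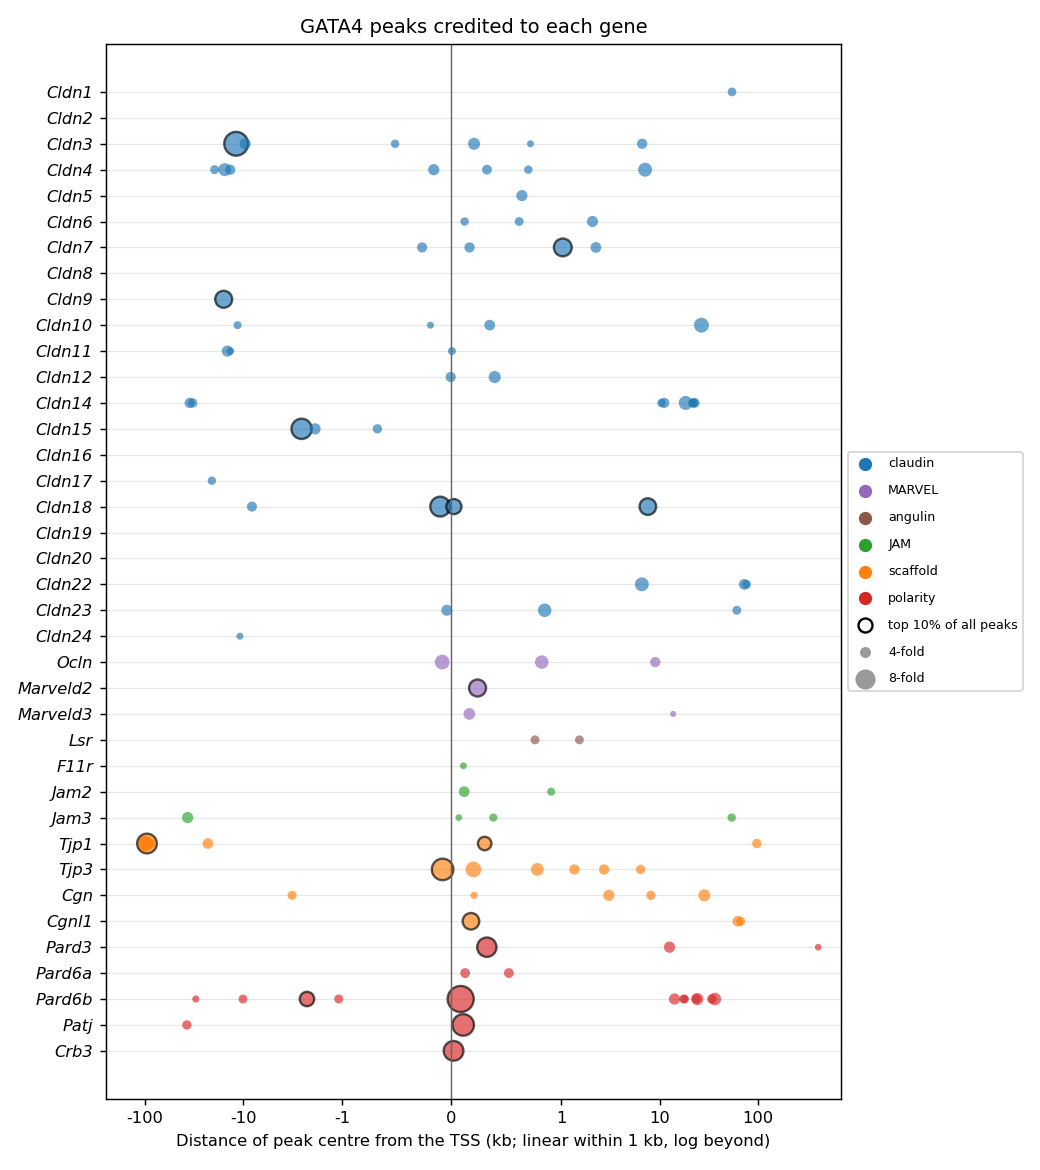
The 112 credited peaks by gene (y axis) and distance of the peak centre from the credited start in kb (x axis, linear within 1 kb and logarithmic beyond); each point is a peak, its area grows with fold, its colour gives the role of the gene and a black outline marks the top 10% of all peaks. Claudin peaks of the top 10% stand mostly away from the start, as at Cldn3, 11.8 kb upstream, and Cldn15, 2.57 kb upstream, while those of scaffold and polarity genes stand mostly on it.

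Among the scaffolds, which link claudins to the actin cytoskeleton, the zonula occludens gene Tjp3 had the strongest peak. Its peak of 46 tags, centred 81 bp upstream of a start (chromosome 10, 80748177 to 80749037), reached 9.44-fold (7.00 to 12.5). A second start of Tjp3 had a peak 200 bp downstream at 6.91-fold (4.86 to 9.56), whose −log10 q-value of 9.66 was just under the top 10%. The other 4 peaks of Tjp3, 783 bp to 6.42 kb from a start, had 4.12- to 5.60-fold. Tjp3 therefore had peaks at both of these starts.

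Tjp1, which encodes ZO-1, had its start peak at 303 bp downstream (chromosome 7, 72515272 to 72516382), with 48 tags and 5.90-fold (4.40 to 7.76). The local input, with the pseudocount of 1 included, was 5.0 scaled tags there and 3.0 at the Tjp3 start peak, while the tags were 48 and 46. A group of 4 peaks lay 95.1 to 98.6 kb upstream in intergenic sequence, at 8.65-, 4.72-, 6.31- and 6.67-fold, and the first of these, in a SINE repeat, was in the top 10%. The interval of that peak, 6.33 to 11.6, overlaps that of the start peak. The single GATA word in the Tjp1 promoter lay 173 to 168 bases upstream.

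The cingulin genes differed from each other. Cgnl1, which encodes paracingulin, had a peak 178 bp downstream of its start (chromosome 9, 71618909 to 71619553) with 35 tags and 7.26-fold (5.16 to 9.97). Cgn, which encodes cingulin, had 5 peaks of 3.17- to 5.28-fold, and the peak at its start, 206 bp downstream, was the weakest of them at 3.17-fold (2.12 to 4.58). The intervals of the start peaks of Cgnl1 and Cgn did not overlap. A further 6 peaks inside the Cgnl1 gene, of 3.17- to 4.29-fold, were credited to the neighbour Myzap.

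Among the polarity genes, 4 of 5 had a top 10% peak at the start. Pard6b, an adaptor that joins atypical protein kinase C to Cdc42, had the strongest peak on the list (chromosome 2, 167905930 to 167907247). It held 61 tags at 11.4-fold (8.82 to 14.6), rank 244 of all peaks by fold and 218 by q-value. It reached from 574 bases upstream of the start to 743 downstream. The Pard6b promoter shown above holds none of the GATA words searched and is 77.6% G and C. Pard6b was credited with 12 peaks, more than any other gene on the list; the next highest, 2.26 kb upstream, had 6.34-fold (4.62 to 8.51) and the others 3.14- to 5.48-fold.

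Patj, a multi-PDZ scaffold of the Crumbs complex, had a peak of 46 tags 107 bp downstream of its start (chromosome 4, 98062297 to 98062951) at 9.44-fold (7.00 to 12.5). Crb3, the Crumbs protein of epithelia, had a peak of 42 tags at 19 bp (chromosome 17, 57201403 to 57202035) at 8.65-fold (6.33 to 11.6). Pard3, the Par-3 scaffold, had a peak of 41 tags 323 bp downstream (chromosome 8, 129587621 to 129588937) at 8.50-fold (6.19 to 11.4). The 4 intervals from Pard6b to Pard3 overlap, so these start peaks were not separated by their counts. Pard6a, the second Par-6 gene on the list, had only weak peaks, 125 bp and 524 bp from its start, both 4.32-fold (2.77 to 6.48), and the interval of each lay below that of the Pard6b start peak.

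The transmembrane partners of claudins all had peaks within 1 kb of their starts. Occludin (Ocln) had peaks 85 bp upstream at 6.47-fold (4.50 to 9.04) and 824 bp downstream at 5.91-fold. Marveld2, which encodes tricellulin of tricellular corners, had 1 peak 238 bp downstream, overlapping the end of Rad17, at 7.46-fold (5.32 to 10.2). It was the only top 10% peak credited to this group. Marveld3 had 5.11-fold 163 bp downstream and 2.69-fold 13.7 kb away. Lsr, the angulin that recruits tricellulin, had peaks of 3.92-fold at 763 bp and 3.90-fold at 1.54 kb. A stronger peak of 7.11-fold over the Lsr promoter, centred 0.205 kb upstream of the Lsr start, was also in the top 10% but was credited to Fam187b.

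The junctional adhesion molecules, immunoglobulin-like proteins of the junction, had a median of 3.59-fold for the strongest peak within 10 kb, the lowest of the groups. F11r, which encodes JAM-A, had a peak 109 bp downstream at 3.04-fold (2.09 to 4.29) on 29 tags. The local input there, with the pseudocount included, was 6.0 scaled tags; the Cldn22 peak of 6.07-fold also had 29 tags, with an input of 3.0. Jam2 had 4.72-fold at 116 bp and 3.52-fold at 910 bp. Jam3 had 2.92-fold at 67 bp, 3.59-fold at 382 bp and up to 4.93-fold at greater distance. None of the 7 peaks of these 3 genes reached 5-fold, against 30.3% of all peaks.

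**Figure D4:**
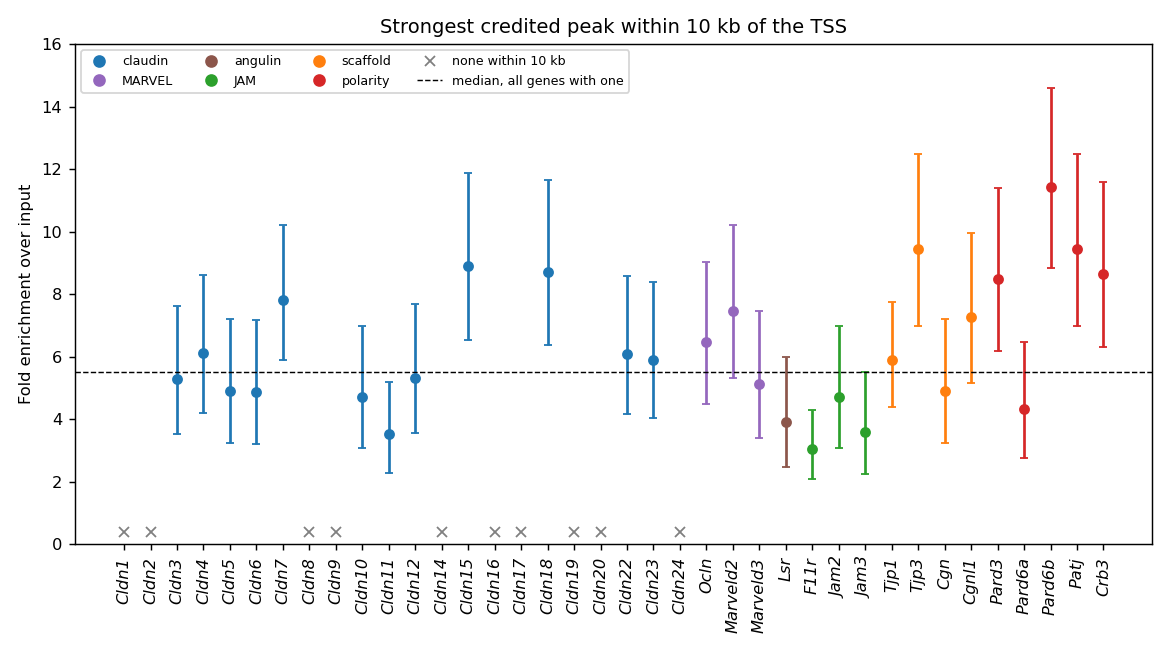
Strongest fold enrichment within 10 kb of the start for each of the 28 genes that had such a peak, by role; points are the authors' fold and whiskers exact Poisson 95% intervals on the tags, crosses mark the 10 claudins without one, and the dashed line is the median of protein-coding genes, 5.51. Pard6b stands highest at 11.4-fold and F11r lowest at 3.04-fold.

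Set beside one another, the strongest peak within 10 kb had a median fold of 5.61 in 12 claudins (95% interval of the median over genes 4.89 to 7.82), 8.50 in 9 scaffold and polarity genes (4.92 to 9.44) and 5.51 in the 13540 protein-coding genes with such a peak. The intervals of the claudins and of the scaffold and polarity genes overlap. For peaks within 1 kb the median over peaks was 4.49-fold for claudins, 7.08-fold for scaffold and polarity genes and 5.28-fold for protein-coding genes. For peaks farther away the medians were 4.52-, 4.30- and 4.26-fold. These medians leave out genes without such a peak and carry no test.

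The base composition of the promoters also had different medians in these groups, with overlapping ranges. The ratio of observed to expected CpG in the 250 bases upstream had a median of 0.44 in 19 claudins and 0.76 in 9 scaffold and polarity genes, with 0.59 over protein-coding genes. Where a gene had more than 1 promoter, the highest ratio was taken, also in the background. These highest ratios ran from 0.073 to 0.78 in claudins and from 0.34 to 1.15 in the other junction genes. Single promoters of other junction genes went lower, down to 0.15 at Patj. Tjp3 had promoters of 0.34 and 0.19, below the claudin median. Their starts were 314 bp apart, whereas the mm9 starts of Tjp3 with peaks were 5486 bp apart. Neither ratio can therefore be assigned to the start with the 9.44-fold peak. In all protein-coding genes the median ratio was 0.76 with a credited peak within 1 kb and 0.23 without. Within claudins it was 0.52 for the 10 genes with such a peak and 0.35 for the 9 without. The part of CpG content in the difference between claudins and scaffold and polarity genes was not tested. Of the 9680 protein-coding genes with a promoter in the table and a credited peak within 1 kb, 19.1% had a GATA word in at least 1 promoter. The share was 26.6% over all 16853 protein-coding genes with a promoter in the table.

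Crediting by nearest start gave some peaks near junction genes to neighbours. The strongest was a peak of 15.2-fold at the start of Slc25a23, 1.70 kb upstream of Crb3. Pard6a had a peak of 5.11-fold 0.926 kb upstream that was credited to Acd. Counting every peak within 10 kb of the start, whichever gene was credited, gave 14 of 22 claudins in place of 12, with Cldn9 and Cldn24 added, and the same 16 other genes; start positions could be read for 17 claudins.

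Genes of the same pathway that were not on the list also often had peaks at their starts. Of 27 such genes, a credited peak lay within 1 kb of 23 and within 10 kb of 24, against 57.4% and 64.4% of protein-coding genes. Within 10 kb, 14 of the 27 had at least 1 peak in the top 10%, against 17.8%. High folds within 10 kb were found at the membrane-associated scaffold Magi1 with 11.1-fold, the polarity genes Scrib with 9.60-fold and Dlg1 with 9.04-fold, and the angiomotin relative Amotl2 with 8.58-fold. Ildr2, an angulin, and Crb1, the Crumbs gene of the retina, were credited with no peak. Most of these genes encode scaffold, polarity or signalling proteins.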

How the data were processed

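Chromatin from stomach mucosa was sequenced as 2 streptavidin pull-down libraries and 1 input. Per the submitters' processing notes, Bowtie2, MACS2 and HOMER were used with mm9; versions of Bowtie2 and HOMER are not given in the sources used here. Per the file headers, MACS 2.1.0.20140616 pooled both pull-downs against the input at a q-value limit of 0.05, with a fragment length of 161 bp and 1 tag kept per position, which left 38770530 of 59610626 pull-down tags and 23023152 of 28116789 input tags. The deposited list gives for each peak, per the file headers, the pileup signal (coverage at the summit, scaled by 0.594), the fold (a ratio to local input) and −log10 q-values. The deposited annotation by HOMER gives a peak score, which matched the −log10 q-value times 10 after its decimals were dropped, in each of 50869 peaks, and credits each peak to the nearest TSS.

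Pileups divided by the scale gave whole tags in all 50869 peaks within 0.02, and exact Poisson 95% intervals on the tags were carried to the fold with the input held fixed; shares have exact Clopper-Pearson 95% intervals. Both cover counting error only. Peaks were matched to genes by name, and by Entrez ID gave the same 112. Counts are set beside 21031 protein-coding genes. With a single pooled list no test between groups of samples was possible and none between genes was made. Every gene of the list may be named; of other pathway genes the 5 with the highest fold within 10 kb and those without a peak are named, except 1 that is not reported here, and neighbours where they are credited with a peak beside a listed gene. Members and gene lists were chosen with earlier results of these data known. Promoter sequences are from RefSeq GRCm38.p6; Cldn8, Cldn9, Cldn23, Jam2, Jam3 and Marveld3 are not among them. Python 3.11.15, pandas 2.3.3, numpy 2.4.6, SciPy 1.17.1 and matplotlib 3.10.9 were used, and the counting was tested on simulated data.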

Additional observations from a re-analysis of the deposited data

How the results depend on the processing

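In total, 42 values were recomputed under other settings. In the main setting 12 claudins and 16 other junction genes had a peak within 10 kb. The medians of their strongest folds were 5.61 and 6.19. Matching by name alone changed none of the values. Leaving out repeats kept both counts and gave 100 credited peaks and medians of 5.30- and 6.19-fold. Claudins with a peak numbered 11 within 1 kb, 16 within 50 kb and 17 at any distance. Other junction genes with a peak numbered 16 at each distance. Over these distances the claudin median ran from 4.92- to 6.09-fold and that of other junction genes from 6.19- to 6.87-fold. Keeping only the top 10% of peaks left 17 credited peaks, and 3 claudins and 8 other junction genes with a peak within 10 kb. The medians were then 8.70-fold for claudins and 8.57-fold for other junction genes. Of the peaks of other junction genes, 80.0% were then within 1 kb of a TSS. Keeping only peaks of at least 5-fold left 35 credited peaks, and 8 claudins and 10 other junction genes with a peak within 10 kb. The medians were then 6.09- and 7.98-fold, and 65.0% of the peaks of other junction genes were within 1 kb. These settings keep fewer peaks by construction. No paired analysis was possible because the pooled call gives no value per replicate, and for the same reason leaving out a replicate could not be run. Peaks of about 22 tags have wide intervals, and binding below the limit of the caller is not detectable at this depth.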

Other observations

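Of 12 other genes named as claudins in the annotation, 4 had a credited peak within 10 kb, against 64.4% of protein-coding genes. None of these peaks was in the top 10%, against 17.8% of protein-coding genes with such a peak. The 4 genes were Cldn34c1 with 5.31-fold 45 bp from its start, Cldn34c4 with 4.59-fold, Cldn34b3 with 4.32-fold and Cldn34a with 3.52-fold. Cldn13, Cldn25-ps, Cldn34-ps, Cldn34c2, Cldn34b1 and Cldn34b2 were credited with no peak. Among the gastric markers the highest folds within 10 kb were at Gkn2 (8.25-fold) and Gkn1 (7.86-fold), both gastrokines of surface mucous cells, and Cblif, the intrinsic factor gene, was credited with no peak.

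Of the 112 peaks, 2 reached 10-fold, at Cldn3 and Pard6b, against 1.04% of all peaks.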
